A study of Homo sapiens with 18 samples.

Results

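The genes that build the LINC complex of the nuclear envelope were examined for H3K27ac and CTCF peaks: SYNE1, SYNE2, SYNE3 and SYNE4, which encode the nesprins, and SUN1 and SUN2, which encode their partners. They are 6 of the 19111 autosomal protein-coding genes of GENCODE release 44. A peak was assigned to a member when it shared at least 1 bp with the gene body, or with the 10 kb on either side of it, on the hg38 genome. The 6 loci held 37 of the 55382 H3K27ac regions and 52 of the 69985 CTCF regions of the series, where a region is the union of the overlapping peaks of the 6 libraries of an antibody. The libraries were made by ChIP-seq from HEK293T cells, a transformed human embryonic kidney line. H3K27ac, histone H3 acetylated at a lysine of its tail, marks promoters and enhancers in use. CTCF is a zinc-finger protein bound at chromatin loop anchors and domain borders. The cells were left untreated (CTRL) or were given 1 mM valproic acid for 1 day (VPA), which inhibits histone deacetylases, with 3 libraries in each of the 4 groups. No source says that the 3 libraries of a group came from separate cultures, so the p-values measure the spread between these libraries, which may be technical.

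SUN proteins span the inner nuclear membrane and bind the lamina with their nucleoplasmic end. In the space between the membranes they hold the KASH tail of a nesprin, which spans the outer membrane, and the nesprin reaches the cytoskeleton: the giant forms of nesprin-1 and nesprin-2, from SYNE1 and SYNE2, bind actin, nesprin-3 from SYNE3 binds plectin and through it intermediate filaments, and nesprin-4 from SYNE4 recruits kinesin-1 in some epithelia. SYNE1 and SYNE2 are very long genes with many alternative starts, from which short nesprins are also made.

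The depth of a library is not known, since read totals are not part of the lists. They listed 26299 to 40992 H3K27ac peaks and 36469 to 58782 CTCF peaks per library. The fragments over each summit were recovered from the deposited values, and the lowest local background of a library was 3.51 to 3.95 fragments. H3K27ac lists were longer with VPA, with 38441 to 40992 peaks against 26299 to 29799 with CTRL, and reached down to a lowest −log10 p-value of 2.96 to 3.09 against 3.12 to 3.23. Replicate 1 stood apart in every group. Over the regions listed in all 6 libraries, the median fold enrichment was 7.61 in replicate 1 of H3K27ac CTRL against 17.2 and 16.3 in replicates 2 and 3, and 7.49 against 15.3 and 15.5 with VPA. For CTCF these medians were 15.0 against 45.3 and 42.5 with CTRL, and 12.4 against 42.5 and 43.0 with VPA. Of the genes used as a check of the cell line, PAX2, LHX1, LIN28B and VIM had a promoter H3K27ac peak in all 6 libraries and NES in 5, while PTPRC, CD3E, ALB, HBB, PECAM1 and MYOD1 had one in 0 of 6.

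The number of CG in the 300 bases around the members' canonical and acetylated starts differed widely. 3 of these sequences are shown as examples. Each is read 5′ to 3′ on the gene's strand from 250 bases before to 50 bases after a transcript start. Every CG is in capitals. The SYNE2 start at chr14:63852754-63853053 (plus strand) was acetylated in all 6 libraries and held 38 CG. The internal SYNE1 start at chr6:152302074-152302373 (minus strand), also acetylated in all 6 libraries, held 28. The SYNE4 start at chr19:36008764-36009063 (minus strand), which had no H3K27ac peak in any library, held 7. The SYNE2 and SYNE4 sequences are from the RefSeq promoter table, in which 5 of the 6 members matched, and the SYNE1 sequence is from the hg38 genome.
SYNE2 main start: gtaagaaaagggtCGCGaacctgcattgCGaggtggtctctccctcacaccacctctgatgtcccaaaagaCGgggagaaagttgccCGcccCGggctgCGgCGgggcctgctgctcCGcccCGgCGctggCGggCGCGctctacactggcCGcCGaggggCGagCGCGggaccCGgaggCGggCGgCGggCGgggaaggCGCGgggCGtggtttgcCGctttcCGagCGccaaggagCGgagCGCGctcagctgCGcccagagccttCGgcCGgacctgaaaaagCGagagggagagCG
SYNE1 internal start: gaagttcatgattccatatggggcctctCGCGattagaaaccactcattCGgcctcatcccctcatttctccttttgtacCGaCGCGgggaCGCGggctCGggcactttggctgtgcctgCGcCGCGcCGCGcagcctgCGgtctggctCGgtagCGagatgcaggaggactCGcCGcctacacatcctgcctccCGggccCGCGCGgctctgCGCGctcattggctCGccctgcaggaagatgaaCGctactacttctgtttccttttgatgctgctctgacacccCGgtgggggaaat
SYNE4 start: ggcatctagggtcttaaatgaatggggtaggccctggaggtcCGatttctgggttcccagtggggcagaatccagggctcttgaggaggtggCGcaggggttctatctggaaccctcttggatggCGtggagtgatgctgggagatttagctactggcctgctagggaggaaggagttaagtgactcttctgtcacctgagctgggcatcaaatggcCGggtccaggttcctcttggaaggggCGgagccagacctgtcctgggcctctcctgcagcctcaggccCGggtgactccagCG
Among the 35116 promoters of the RefSeq table, where the median was 14 CG, these stood at percentiles 91.3, 75.8 and 39.3. The SYNE3 start at chr14:95516601-95516900 and the main SUN2 start at chr22:38755949-38756248 each held 42 CG (percentile 95.0) and were acetylated in 6 libraries. The SYNE1 start at chr6:152636841-152637140, near the 5′ end of the gene record, held 37 CG (percentile 90.1) but was acetylated in 4 libraries, those of replicates 2 and 3. A further SUN2 start at chr22:38754917-38755216 held 9 CG (percentile 43.6), and its window overlapped an H3K27ac peak in all 6 libraries. The number of CG therefore did not order the starts by acetylation.

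Peaks were assigned by their summit to the member's own promoter (within 1 kb of a transcript start), to the promoter of another gene, to the rest of the gene body (intragenic) or to the flank. Of the 37 H3K27ac regions, 11 lay at an own promoter, 6 at another gene's promoter, 18 were intragenic and 2 flanking. Of the 52 CTCF regions, 4 lay at an own promoter, 4 at another gene's, 38 were intragenic and 6 flanking. By gene feature, 38 of the 52 CTCF summits and 26 of the 37 H3K27ac summits lay in an intron. The intron share over all regions of the series was not counted. Per 100 kb of locus, SUN1 had 14.0 H3K27ac regions, SYNE4 11.8, SUN2 6.18, SYNE2 1.65, SYNE3 1.55 and SYNE1 0.933. The density of CTCF regions ran from 2.48 per 100 kb at SYNE2 to 15.7 at SYNE4.

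The treatment comparison asks whether the inhibitor changed acetylation or CTCF at these genes. H3K27ac peaks at the members' own promoters numbered 9, 9 and 9 with CTRL and 8, 9 and 10 with VPA over the 6 loci. Intragenic H3K27ac peaks numbered 3, 3 and 4 with CTRL against 7, 15 and 11 with VPA, a mean of 3.33 ± 0.577 against 11 ± 4 (SD, n = 3). The VPA lists are the longer ones, and in single genes of at least 100 kb the intragenic number of every VPA library lay above every CTRL library at 13.6% of all such genes. All H3K27ac peaks of the 6 loci together numbered 16, 18 and 20 against 18, 32 and 26. With every list cut to the length of the shortest list of its antibody by −log10 p-value, the intragenic difference of 7.67 peaks became 2 and the difference of 7.33 over all classes became 1. Without VPA replicate 1 the latter was 11, and without VPA replicate 2 it was 4.

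Taken gene by gene, SYNE2 was the member whose H3K27ac peak number did not overlap between treatments, with 5, 3 and 3 peaks against 6, 6 and 6. The exact permutation test gave p = 0.1, the smallest that 3 libraries against 3 allow, so no member could reach 0.05 (adjusted over the 24 tests, p = 0.8). This 1 of 6 members stood beside 10.2% of all genes, and 15.8% of the genes of at least 100 kb, in which every VPA library lay above every CTRL library. SYNE1, the longest member, had 2, 2 and 3 peaks with CTRL and 3, 4 and 4 with VPA (exact p = 0.2), higher with VPA in all 3 replicate numbers. SYNE3 had 1, 2 and 2 against 2, 2 and 2, and SYNE4 had 3, 2 and 2 against 2, 3 and 3. SUN1 had 3, 7 and 8 against 3, 13 and 8, and SUN2 had 2, 2 and 2 against 2, 4 and 3 (exact p = 0.4 for SUN2, 0.7 for SUN1 and 1 for SYNE3 and SYNE4). Those 4 genes and SYNE1 overlapped between treatments. Without VPA replicate 2, the difference at SUN1 went from 2 to -0.5. At equal list lengths 0 of the 6 members stood apart, against 1.62% of all genes, and SYNE2 then had 5, 3 and 3 peaks against 4, 3 and 5.

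The bases under H3K27ac peaks were higher on average with VPA at all 6 members, and did not overlap at SYNE2 and SYNE4. SYNE2 carried 3.57, 3.25 and 3.52 kb with CTRL and 6.08, 6.03 and 7.40 kb with VPA, a mean of 3.44 ± 0.171 against 6.50 ± 0.776 kb (SD, n = 3, exact p = 0.1). The locus of SYNE4 carried 4.04 ± 0.970 against 6.11 ± 0.885 kb (n = 3, exact p = 0.1). At SUN1 the means were 9.17 ± 3.06 and 13.2 ± 6.18 kb (n = 3, exact p = 0.4), at SUN2 2.95 ± 0.518 and 4.37 ± 0.939 kb (exact p = 0.2), and at SYNE1 1.63 ± 0.336 and 2.67 ± 0.749 kb (exact p = 0.2). The 2 of 6 members that stood apart are to be read beside 26.5% of all genes and 30.6% of the genes of at least 100 kb. At equal list lengths SYNE2 (3.44 against 5.50 kb) and SYNE4 (4.04 against 5.50 kb) still did not overlap, beside 17.4% of all genes. With the replicate numbers as pairs the smallest p was 0.25 for every one of these comparisons, which is the smallest that 3 pairs allow.

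**Figure D1:**
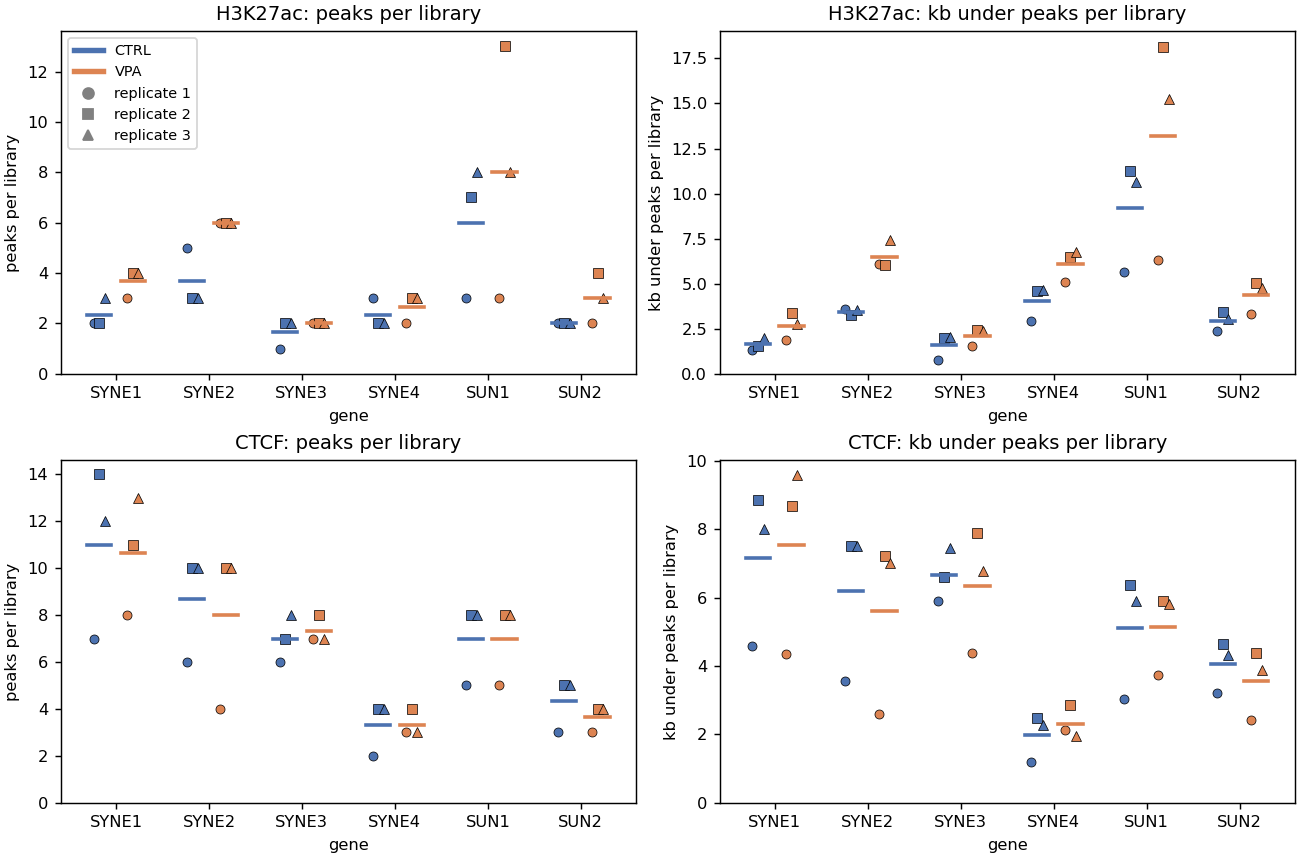
Peaks per library (left) and kb under peaks per library (right) at each member's locus, for H3K27ac (top) and CTCF (bottom); symbols are the 3 replicates and horizontal bars the means of CTRL and VPA. SYNE2 is the gene whose H3K27ac peak numbers separate, 5, 3 and 3 against 6, 6 and 6, while for CTCF replicate 1 has the lowest or joint lowest peak number at every gene in both treatments.

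SYNE2 held both of the member regions with an H3K27ac peak in all 3 VPA libraries and in no CTRL library. These 2 of 37 regions stood beside 4.12% of all H3K27ac regions, and 0 of 37 had peaks only with CTRL, beside 0.139%. Both lie in an intron before the main start. The first had 14, 20 and 25 fragments at the summits of its peaks in the 3 VPA libraries and fold enrichments of 2.51, 3.38 and 4.44. Its peaks in VPA replicates 1 and 2 shared no base, and the region was joined through the peak of replicate 3. They lay 48.99 to 49.77, 50.01 to 50.45 and 49.71 to 50.40 kb from the 5′ end of the gene record in replicates 1, 2 and 3. The second had 22, 22 and 33 fragments and folds of 4.92, 1.98 and 4.61. These are low summits: the lowest summit listed in any H3K27ac library had 11 fragments, and the −log10 q-values of these peaks ranked at percentiles 1.37, 21.6 and 37.1 of their lists for the first and 36.8, 0.718 and 44.5 for the second. With −log10 q-values under 3 left out, or at equal list lengths, neither was left in all 3 VPA libraries. Without VPA replicate 1, 5 member regions had peaks in the remaining VPA libraries only, the added ones being at chr14:64200084-64200545 in SYNE2, chr19:35998793-35999908 beside SYNE4 and chr7:879835-880775 in SUN1. Without VPA replicate 3 there were 3.

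Upstream of those 2 regions, also in an intron, SYNE2 had an H3K27ac region at chr14:63798287-63801362 in all 6 libraries. Its peak measured 360, 318 and 618 bp with CTRL and 1590, 1585 and 2878 bp with VPA, a ratio of the means of 4.67. The summit itself had 56, 40 and 50 fragments against 56, 49 and 54, a ratio of 1.09. The peak was therefore wider with VPA in each library while its height overlapped. A CTCF region lay under it (chr14:63799303-63799990). This CTCF region had 217, 176 and 157 fragments with CTRL and 61, 128 and 100 with VPA, lower in all 3 replicate numbers. Its fold enrichment was lower with VPA in replicates 1 and 3 and higher in replicate 2 (limma adjusted p = 1.00 for the CTCF fold enrichment).

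Of the 37 H3K27ac regions at the members, 12 had a peak in all 6 libraries (33.2% of all H3K27ac regions did). All 12 were wider on average with VPA, with ratios of 1.06 to 4.67 and a median of 1.24, and so were 89.0% of the 18407 such regions of the series, with a median of 1.19. Every VPA library was wider than every CTRL library at 3 of the 12 (the upstream SYNE2 intron, the SDHAF1 promoter beside SYNE4 and the first SUN1 start), beside 21.7% of all. Where a library had several peaks in a region, the one with the highest −log10 p-value was measured. The widths therefore also depend on how the signal was split into peaks, as at the first SUN1 start. The summits moved differently from the widths. Fragments at the summit were lower with VPA in all 3 replicate numbers at 5 of the 12 (56.2% of all regions) and higher in all 3 at 1 of the 12 (19.4%). The VPA lists were also the longer ones and reached weaker p-values, and the part of this in the widths was not tested.

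**Figure D2:**
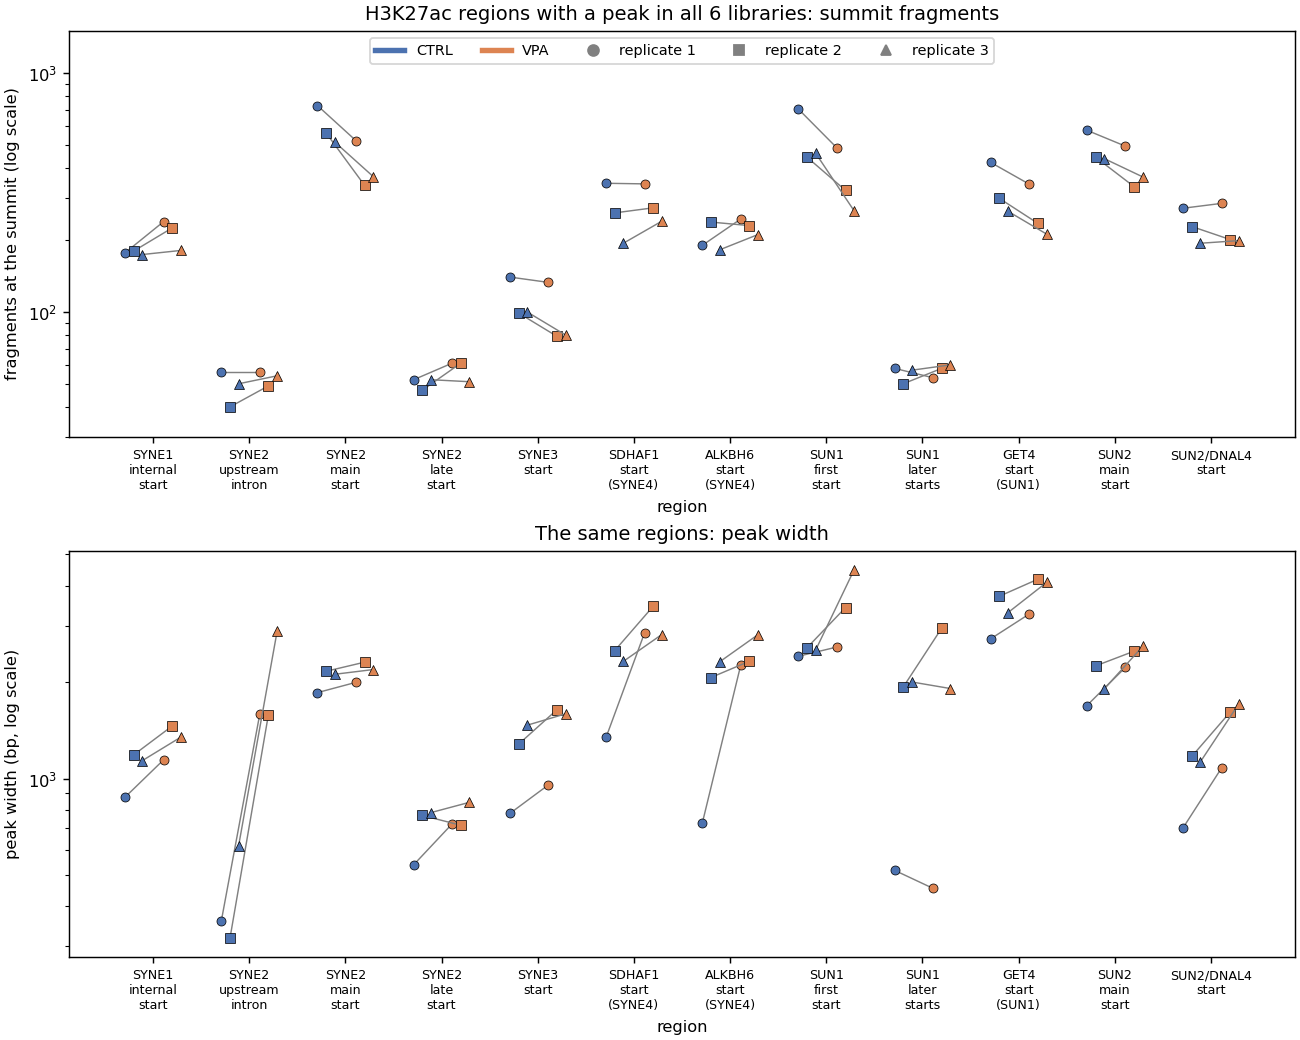
Fragments at the summit (top) and peak width in bp (bottom), both on log axes, at the 12 member regions with an H3K27ac peak in all 6 libraries; lines join CTRL and VPA libraries of the same replicate number. The SYNE2 main start and the first SUN1 start are lower with VPA in each pair, from 732, 562 and 515 to 522, 339 and 369 fragments at SYNE2, and the upstream SYNE2 intron shows the widest peaks with VPA relative to CTRL.

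The main SYNE2 start (chr14:63852354-63854661) had 732, 562 and 515 fragments at its H3K27ac summit with CTRL and 522, 339 and 369 with VPA. Each VPA library was lower than the CTRL library of the same number, though the groups overlapped, and the ratio of means was 0.680. The first SUN1 start (chr7:812965-818251) went the same way, with 708, 445 and 462 fragments against 487, 323 and 265, a ratio of 0.666. Its strongest peak measured 2408, 2560 and 2519 bp with CTRL and 2573, 3416 and 4483 bp with VPA. CTRL replicates 2 and 3 and VPA replicate 2 listed a separate peak upstream in this region. It lay at -3.584 to -2.681, -3.395 to -2.588 and -3.65 to -2.304 kb from the 5′ end of the gene record. In VPA replicate 3 the 4483 bp peak ran from -3.33 to 1.152 kb and covered both stretches. The main SUN2 start (chr22:38754108-38756846) had 577, 445 and 439 against 495, 335 and 368 fragments. The SYNE3 start (chr14:95515856-95517598) had 140, 99 and 100 against 133, 79 and 80. At these 4 gene starts each pair was lower with VPA in summit fragments, and the highest library was a replicate 1. Fold enrichment was lower in every pair at the first SUN1 start only. At the main SYNE2 start it was nearly unchanged in replicate 1 and lower in replicates 2 and 3. At the main SUN2 start and the SYNE3 start it was higher with VPA in replicates 1 and 3 and lower in replicate 2.

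The internal SYNE1 start behaved otherwise. It lies 336 kb from the 5′ end of the gene record. Its region (chr6:152301324-152302783) had 177, 180 and 174 fragments with CTRL and 239, 225 and 181 with VPA, so that every VPA library lay above every CTRL library. Such a separation was found at 1 of the 12 member regions, beside 1981 of the 18407 regions of the series. The internal SYNE1 start was also the member region higher in all 3 replicate numbers. The start of the full-length gene record (chr6:152636485-152637377) was weak by comparison, with 37 and 31 fragments in CTRL replicates 2 and 3, 36 and 35 in VPA replicates 2 and 3, and no peak in replicate 1. An intronic region at chr6:152485723-152486327 had 32 and 32 fragments in 2 CTRL libraries and 31, 57 and 35 with VPA. The late SYNE2 start (chr14:64196677-64197520), near the 3′ end of the gene, had 52, 47 and 52 against 61, 61 and 51.

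SYNE4 itself carried no peak of either antibody in its body or at its starts. Most of the H3K27ac bases counted at its locus belong to the promoters of its neighbours: SDHAF1 (chr19:35994409-35997855), an assembly factor of respiratory complex II, with 346, 260 and 194 against 344, 273 and 240 fragments, and ALKBH6 (chr19:36013325-36016266) with 190, 238 and 182 against 245, 230 and 211. The SDHAF1 peak widened from 1344, 2507 and 2321 bp to 2845, 3447 and 2815 bp. A flanking region 4.55 kb from the SDHAF1 start (chr19:35998793-35999908) added peaks of 723 and 1116 bp in VPA replicates 2 and 3 only. With the flank left out, the difference in bases at SYNE4 was 0.

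At SUN1 and SUN2 some acetylation was also shared with other genes. The strongest H3K27ac region inside SUN1 after its first start was the promoter of GET4 (chr7:875325-879537), with 423, 299 and 264 against 343, 235 and 212 fragments. The later SUN1 starts (chr7:830245-833190) had 58, 50 and 57 against 53, 58 and 60. Of the 8 intragenic SUN1 regions, the one with the highest −log10 p-values (chr7:872773-874345) had 23 and 27 fragments with CTRL and 41 and 28 with VPA, in replicates 2 and 3 only. The upstream SUN2 start (chr22:38793063-38794829), which DNAL4 shares, had 272, 228 and 194 against 285, 201 and 199. Its intragenic regions were found in single VPA libraries, the strongest at chr22:38782590-38783189 with 34 fragments in VPA replicate 2. In SYNE3 an intronic region at chr14:95431610-95432589, over a CTCF region, had 52 and 45 fragments in CTRL replicates 2 and 3 and 69, 66 and 64 with VPA.

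Fold enrichment over the local background was tested with limma over all 18407 H3K27ac regions with a peak in all 6 libraries. No region of the series passed an adjusted p of 0.05 (0 up and 0 down, each 0% of the regions; 249 up and 47 down at an unadjusted p under 0.05). The log2 fold changes of the 12 member regions ran from -0.53 at the first SUN1 start to 0.62 at the internal SYNE1 start, with standard errors of 0.41 to 0.76. At the SYNE1 start the folds were 6.16, 15.2 and 13.5 with CTRL and 6.04, 23.6 and 32.4 with VPA (limma adjusted p = 1.00). The median over all regions was -0.14. Of the 12 member regions 7 were positive. Without VPA replicate 1 all 12 were, without CTRL replicate 1 or VPA replicate 2 only 3, without VPA replicate 3 only 4, and without CTRL replicate 2 or 3 there were 8.

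The same-numbered H3K27ac libraries deviated together (correlations of 0.864, 0.585 and 0.590 for numbers 1, 2 and 3). So did CTRL 2 with VPA 3 (0.606) and CTRL 3 with VPA 2 (0.554). These values therefore single out a pair for number 1 only. The fit was also made with the replicate number as a block, and its p-values rest on that pairing. It called 4.64% of all regions up and 11.6% down, and 0 of the 12 member regions, of which the lowest adjusted p was 0.072 (limma). With summit fragments over the background coverage in place of fold enrichment, and the block, limma called 12% up and 53.5% down over the series, and among the members 0 up and 4 down. These were the first SUN1 start (log2 fold change -0.65, limma adjusted p = 3.7e-10), the main SYNE2 start (-0.61, 8.8e-10), the main SUN2 start (-0.34, 1.7e-04) and the GET4 promoter (-0.37, 1.8e-04). With each library centred on its median as well, which moved the median of all regions from -0.28 to -0.05, 24.5% were up and 35.4% down. Of the members, the first SUN1 start (-0.41, adjusted p = 1.2e-04) and the main SYNE2 start (-0.38, 5.1e-05) were still lower with limma. The internal SYNE1 start (0.46, 4.2e-04), the late SYNE2 start (0.38, 0.044) and the SDHAF1 (0.31, 0.0024) and ALKBH6 promoters (0.37, 0.0015) were then higher. The main SYNE2 and the first SUN1 start kept their direction in these 3 fits, while the calls at SUN2, GET4, SYNE1, the late SYNE2 start, SDHAF1 and ALKBH6 depended on the centring. The internal SYNE1 start had an adjusted p of 0.077 with fold enrichment and the block, and 0.049 with centring added.

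CTCF peak numbers at the 6 loci were 29, 48 and 47 with CTRL and 30, 45 and 45 with VPA. No member stood apart in either direction in peak number, beside 0.351% of all genes above and 0.774% below, or in bases, beside 1.11% above and 1.64% below. SYNE1 had 7, 14 and 12 CTCF peaks against 8, 11 and 13, and SYNE2 had 6, 10 and 10 against 4, 10 and 10. Replicate 1 held the fewest peaks of both treatments at these genes, and without it the treatments still overlapped. SYNE3 had 6, 7 and 8 against 7, 8 and 7, SYNE4 2, 4 and 4 against 3, 4 and 3, SUN1 5, 8 and 8 against 5, 8 and 8, and SUN2 3, 5 and 5 against 3, 4 and 4 (exact p of 0.6 at SUN2 and 1 at the others). The total over the 6 loci differed by -1.33 peaks. It was 3.67 without VPA replicate 1, -7.5 without CTRL replicate 1, 2 without CTRL replicate 2 and 1.5 without CTRL replicate 3, and -3.83 without VPA replicate 2 or 3.

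**Figure D3:**
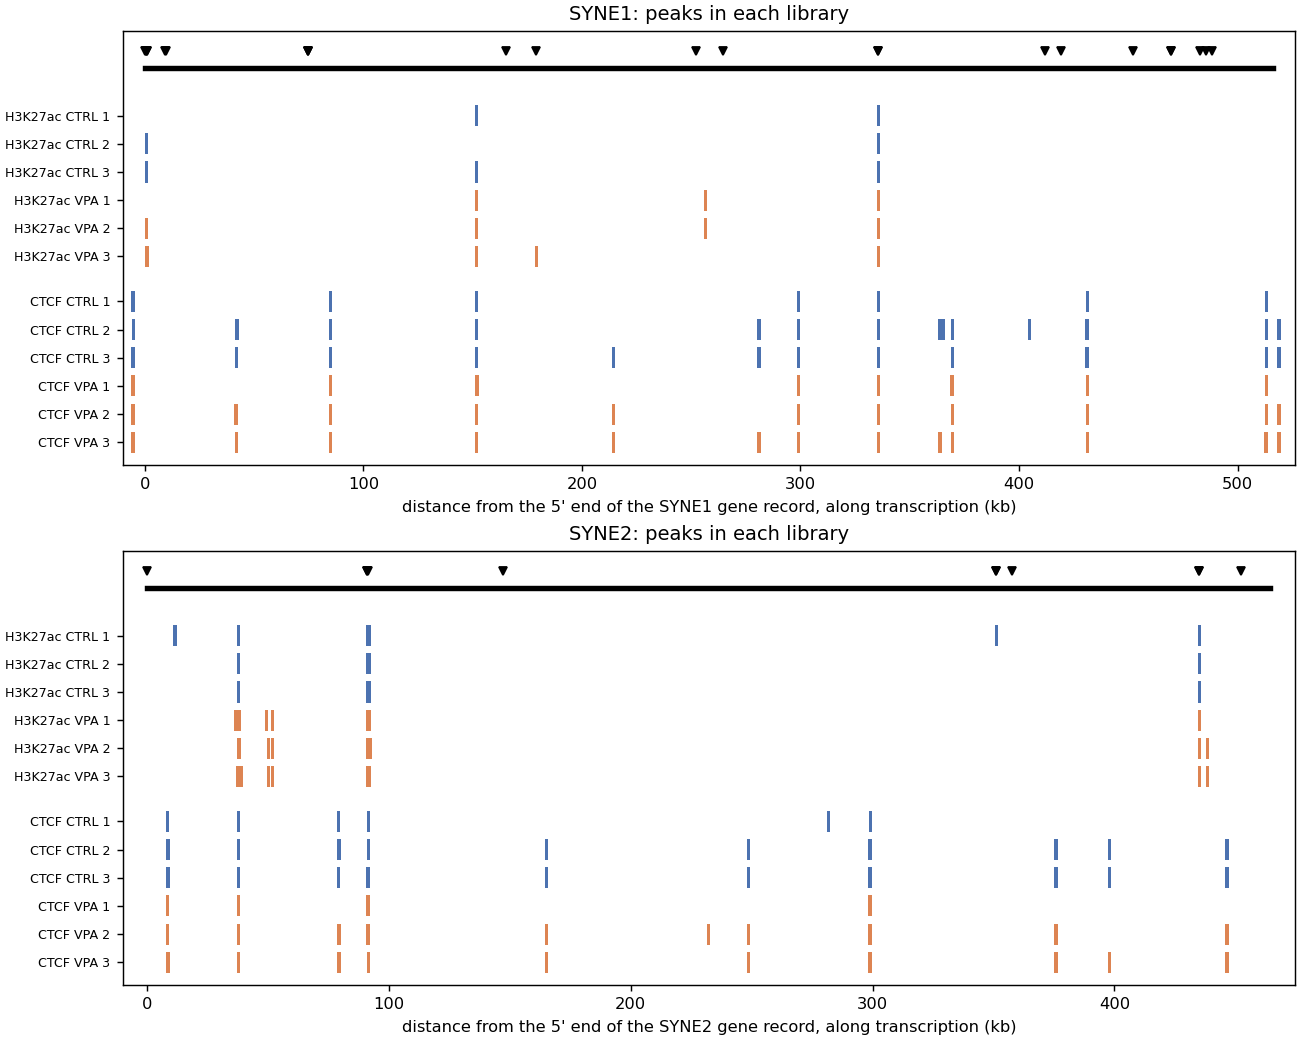
H3K27ac and CTCF peaks of each library along SYNE1 and SYNE2, by distance in kb from the 5′ end of the gene record (black bar), with triangles at annotated transcript starts; narrow peaks are drawn wider than they are so that they show. In SYNE1 the H3K27ac peak of all 6 libraries is 336 kb inside the gene record, and in SYNE2 the 2 VPA regions before the main start have no CTRL peak.

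Of the 52 CTCF regions, 26 had a peak in all 6 libraries (39.7% of all CTCF regions did), and 0 had peaks in VPA libraries only or CTRL libraries only, beside 0.186% and 0.326%. SYNE3 had the highest share, 6 of 8 regions in all 6 libraries, against 7 of 15 at SYNE1 and 4 of 12 at SYNE2. By mean summit fragments the highest 4 lay in SUN2, SYNE3 and SUN1. Between the upstream and the main start of SUN2, the region at chr22:38768191-38769516 had 2794, 1337 and 1287 fragments at its CTCF summit with CTRL and 3815, 1407 and 1207 with VPA, and its neighbour at chr22:38765861-38766987 had 1977, 965 and 802 against 2647, 999 and 822. In SYNE3 an intronic CTCF cluster at chr14:95430780-95433610 had 1958, 943 and 856 against 2792, 999 and 778. In SUN1 the region at chr7:873039-874139 had 1647, 951 and 847 against 1436, 896 and 789. The treatments overlapped at each of these, and replicate 1 was the highest library of both.

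Other intragenic regions had the opposite order. The SYNE1 region with the highest CTCF −log10 p-values, at chr6:152337990-152339141, had 63, 771 and 710 fragments with CTRL and 82, 810 and 666 with VPA. In SYNE2 the corresponding region at chr14:64137334-64138269 had 213 and 203 against 152 and 142 fragments in replicates 2 and 3 and no peak in replicate 1. Over the 17 intragenic CTCF regions of all 6 libraries, replicate 1 was the lowest library at 10 with CTRL and 11 with VPA. At the 4 own-promoter CTCF regions, in SYNE1, SYNE2, SYNE3 and SUN1, replicate 1 had the most summit fragments in both treatments. Its local background was the highest there too. Its fold enrichment was the lowest of both treatments at SYNE1 and SUN1. At SYNE2 this held with CTRL only, and at SYNE3 in neither treatment. How often replicate 1 was the lowest or the highest library was not counted over all CTCF regions of the series. At the internal SYNE1 start, CTCF had 504, 235 and 204 fragments against 692, 225 and 182, and at the main SYNE2 start 291, 127 and 122 against 395, 103 and 86.

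The CTCF change from CTRL to VPA within a replicate number was wide in replicate 1 and narrow in the others. Over the 26 regions the log2 ratio of summit fragments ran from -2.87 to 0.97 in replicate 1, from -0.58 to 0.43 in replicate 2 and from -0.65 to 0.31 in replicate 3. Of the 26, 7 differed more than 2-fold in replicate 1 and 0 in replicates 2 and 3. The share over all 27794 CTCF regions was not counted, and replicate 1 stood apart over the whole series. One of the 7, an intronic SYNE3 region at chr14:95441893-95443285, had 1200, 724 and 690 fragments with CTRL and 178, 830 and 676 with VPA. Another, beside SYNE4 at chr19:35998711-35999828, had 1113, 620 and 545 against 205, 779 and 605. limma called 0 of the 26 member regions and 0 of all 27794 CTCF regions (0%, with 187 up and 68 down at an unadjusted p under 0.05), with member log2 fold changes of -0.96 to 0.72 and a lowest unadjusted p of 0.132. A region in a SUN2 intron (chr22:38740499-38741167) had 42 and 38 fragments in CTRL replicates 2 and 3 and no VPA peak.

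**Figure D4:**
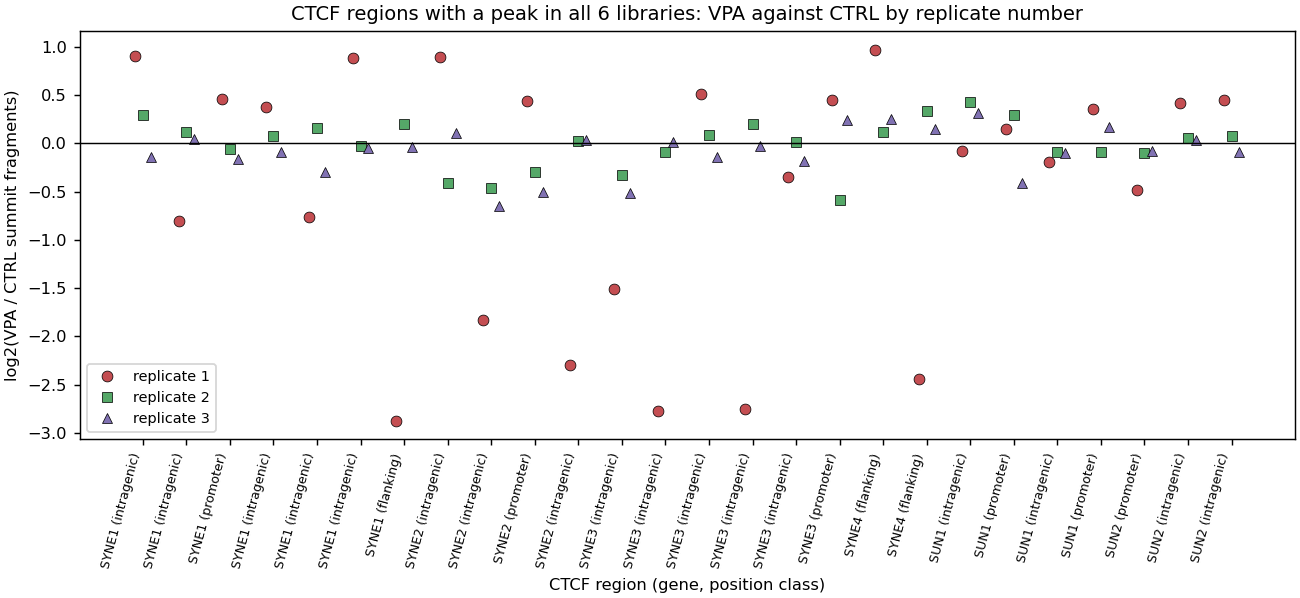
The log2 ratio of summit fragments, VPA over CTRL, within each replicate number at the 26 member CTCF regions with a peak in all 6 libraries. Replicate 1 spreads from -2.87 to 0.97, and replicates 2 and 3 stay between -0.65 and 0.43.

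CTCF binds a long motif whose core was searched for within 100 bp of each summit on both strands as CC, 3 free bases, AG, 2 free bases and GGC. It was found at 12 of the 52 member CTCF regions (23.1%), at 28.0% of all CTCF regions, and at 2.28% of windows moved by 2 kb. Among the regions of all 6 libraries it was found at 9 of 26 at the members and at 41.3% of the series. The site was on the plus strand at 8 of the 12 and on the minus strand at 4. 6 of the sites are shown, those under the strongest of these regions, on the strand of the match with the core in capitals, from the hg38 genome. They lie at chr6:152206626-152206645 (plus) in SYNE1, chr14:95427176-95427195 (plus) and chr14:95442689-95442708 (plus) in SYNE3, chr19:35999191-35999210 (plus) beside SYNE4, chr7:873492-873511 (minus) in SUN1 and chr22:38733436-38733455 (plus) at the 3′ end of SUN2.
SYNE1 intron: tgacCCAGCAGGGGGCgcac
SYNE3 intron A: agggCCACCAGAGGGCtccc
SYNE3 intron B: gtggCCACTAGAGGGCactg
SYNE4 flank: tcagCCTGTAGGGGGCagca
SUN1 exon: gcacCCAACAGGTGGCgcca
SUN2 3′ end: cctgCCAGCAGGGGGCtgac
The SYNE3 sites A and B and the SYNE4 site lay 1, 21 and 12 bp from their summits. CTCF over site A had 553, 687 and 565 fragments with CTRL and 81, 646 and 571 with VPA. Site B and the SYNE4 site are those of the regions given above with 178 and 205 fragments in VPA replicate 1. The 2 SUN2 regions between its starts and the SYNE3 cluster held no match in these windows.

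**Figure D5:**
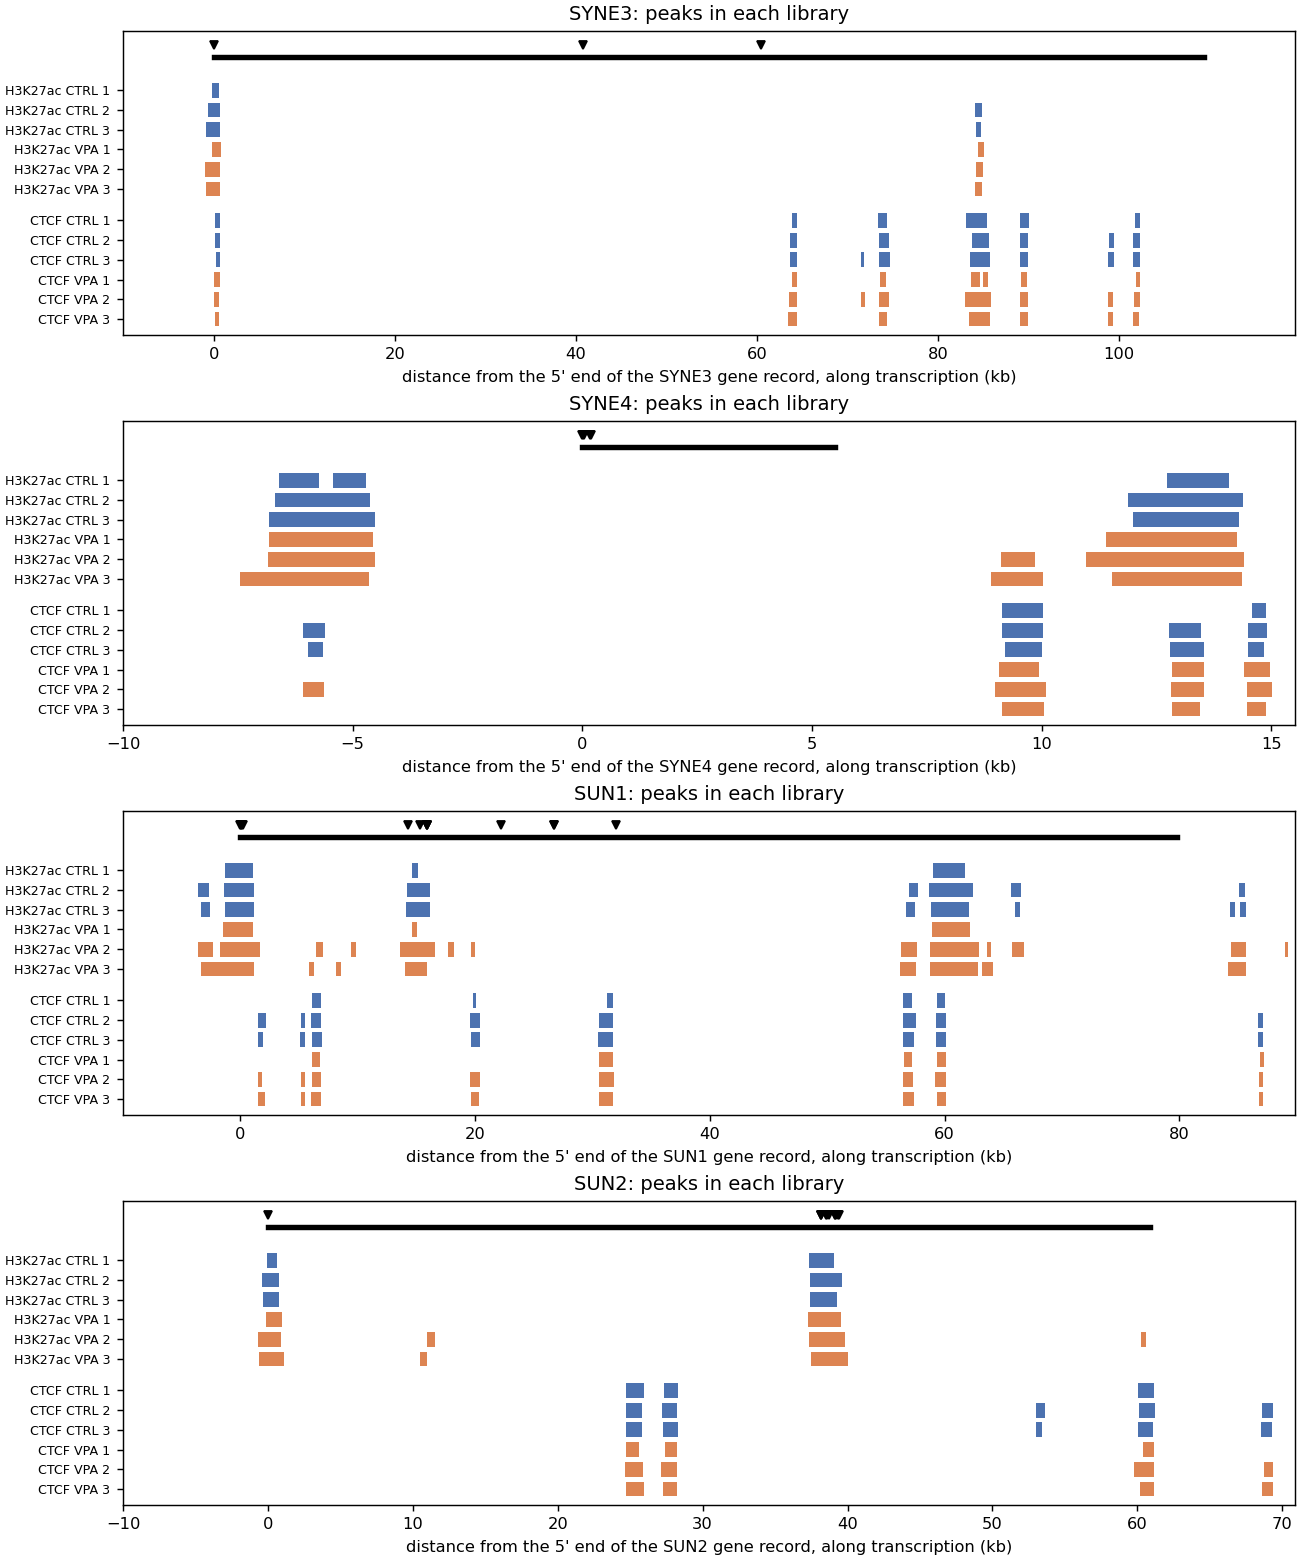
H3K27ac and CTCF peaks of each library along SYNE3, SYNE4, SUN1 and SUN2, by distance in kb from the 5′ end of the gene record (black bar), with triangles at annotated transcript starts; narrow peaks are drawn wider than they are. SYNE4 has peaks on both sides of the gene and none in it, and the 2 CTCF regions of SUN2 with the most summit fragments lie between its starts.

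Overlap of CTCF regions with H3K27ac peaks was counted at the members only, so no share over all CTCF regions stands beside it. Of the 52 CTCF regions, 10 overlapped an H3K27ac peak in at least 2 CTRL libraries and 12 in at least 2 VPA libraries, and 36 overlapped none in any library. The overlaps included the internal SYNE1 start, the main SYNE2 start, the upstream SYNE2 intron and the SYNE3 cluster.

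For comparison, 17 further genes of the same system were counted: other SUN and KASH proteins (SUN3, SUN5, SPAG4, KASH5, IRAG2) and partners of the complex, among them lamins, torsin-1A and its activator, and motor subunits. H3K27ac peak numbers stood apart, higher with VPA, at 5 of 17, beside 10.2% of all genes, namely SUN5 (0, 0 and 0 against 1, 1 and 1), LMNB1 (2, 3 and 1 against 4, 6 and 5), TOR1AIP1 (3, 3 and 3 against 6, 4 and 6), BICD2 (1, 1 and 1 against 2, 4 and 3) and DYNC1H1 (1, 2 and 2 against 6, 7 and 8). The median difference over the 17 was 1 peak, against 0.333 over all genes. LMNB1 encodes lamin B1, TOR1AIP1 the lamina-associated torsin activator LAP1, and BICD2 and DYNC1H1 a dynein adaptor and the dynein heavy chain. Bases under H3K27ac peaks stood apart at 8 of 17, beside 26.5% of all genes, and none was lower. At equal list lengths the counts were 0 of 17 in number, beside 1.62%, and 5 of 17 in bases, beside 17.4%. For CTCF, KLC1, a kinesin light chain, was lower (5, 7 and 6 against 2, 3 and 3 peaks), 1 of 17 beside 0.774% of all genes. It was also the 1 of 17 that was lower in bases under CTCF peaks, beside 1.64% of all genes. No gene was higher, beside 0.351% in number and 1.11% in bases. CTCF at these 17 genes was not counted at equal list lengths. The intragenic H3K27ac peak number stood apart at SYNE2 (2, 1 and 1 against 4, 4 and 4) among the 3 members of at least 100 kb, beside 13.6% of all genes of that length.

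The promoter whose log2 fold enrichment was most like a member's over the 6 H3K27ac libraries was that of ZNF562 for SYNE1 (Pearson's r = 0.998), LTBP1 for SYNE2 (0.999), HDDC3 for SYNE3 (0.999), UACA for SUN1 (1.00) and SLC25A29 for SUN2 (0.999). These are descriptions over 6 libraries that share the low folds of replicate 1, and 263 genes for SYNE1 and 2157 to 4133 for the others had an r above 0.95. SYNE4 had no promoter peak and was left out. Between members r ran from 0.70 for SYNE1 and SUN1 to 0.97 for SYNE3 and SUN2.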

How the data were processed

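The series has 18 samples, of which the 12 ChIP libraries (H3K27ac and CTCF, CTRL and VPA, 3 each) were analysed, and the 6 inputs were not analysed here. Groups and replicate numbers came from the labels, and 0 columns were left unmatched. The authors sonicated chromatin to 200 to 600 bp, aligned paired reads to hg38 with Bowtie2 and called peaks in each library with MACS3 (version 3.0.0a7 in the submitters' processing notes) at a q-value of 0.05. Per peak the deposited lists give the summit position, the fold enrichment over local background as a ratio, a −log10 p-value, a −log10 q-value and a display score, 10 times the −log10 q-value for nearly all peaks. Whether inputs were used and duplicates removed was not given in the sources used here.

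The fragments over a summit were recovered as the number that gives both the deposited fold and the −log10 p-value under a Poisson background; at least 99.998% of the values per library fell within 0.05 of a whole number. The study's DiffBind model needs reads, so peak numbers and bases were compared by a two-sided exact permutation test with Benjamini-Hochberg adjustment over 24 tests. Log2 fold enrichment was fitted with limma 3.58.1 (R 4.3.3, trended eBayes) over all regions that the 6 libraries of an antibody share, adjusted over all of them and called below 0.05. Intervals, genes and sequences were handled in Python 3.11.15 with pandas 2.3.3 and numpy 2.4.6, and figures drawn with matplotlib 3.10.9. The fits were tested on simulated data with known changes. For the fit without the block the simulated noise was independent and lacked the replicate offsets of these libraries. That simulation therefore cannot show whether this fit finds changes in these libraries. Gene coordinates are from GENCODE release 44.

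Same-numbered H3K27ac libraries deviated together in fold enrichment (r = 0.864, 0.585 and 0.590 for numbers 1, 2 and 3). CTRL 2 with VPA 3 (0.606) and CTRL 3 with VPA 2 (0.554) did so as well. The CTCF correlations were 0.340, -0.045 and 0.477 in fold enrichment and 0.790, 0.543 and 0.852 in summit fragments, where CTRL 2 with VPA 3 was at 0.848, so whether the CTCF libraries pair depends on the measure. The regions named are each member's promoter regions, regions with peaks in all libraries of 1 treatment only, regions called by limma and the intragenic region of each member with the highest mean −log10 p-value. Other regions were named after their values were seen, for a contrast between replicates or treatments or for a motif. The members and all gene lists were chosen with earlier results of these data known.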

Additional observations from a re-analysis of the deposited data

Results flagged for a closer look

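At SYNE2 and SUN2 the bases under H3K27ac peaks were higher with VPA, and those under CTCF peaks lower, in all 3 replicate numbers. The H3K27ac difference (VPA minus CTRL) exceeded the CTCF difference by 3.65 kb at SYNE2 (3.06 against -0.599 kb) and by 1.92 kb at SUN2 (1.42 against -0.499 kb). Both were picked out because every pair of one antibody moved one way and every pair of the other the opposite way. With every list cut to the shortest of its antibody, the CTCF part did not hold in every pair at either gene. CTCF then had 2.48 kb with CTRL and 2.59 kb with VPA in replicate 1 at SYNE2. In replicate 2 at SUN2 it had 3.98 and 4.38 kb. The share of all genes with such opposite moves was not counted, and the difference between the antibodies was not tested.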

How the results depend on the processing

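The depth of the libraries is not known, and a region without a listed peak may hold fragments below the caller's threshold, so absence of a peak is not absence of signal. With every list cut to the shortest of its antibody, the H3K27ac peak difference over the 6 loci went from 7.33 to 1, the CTCF difference from -1.33 to 1.67 peaks and from -0.635 to 0.66 kb, SYNE4 H3K27ac from 0.333 to -0.333 peaks and SYNE1 CTCF from 0.4 to -0.063 kb. The 2 SYNE2 regions found only with VPA became 0 there and with −log10 q-values under 3 left out. With no flank the SUN1 CTCF difference went from 0.043 to -0.045 kb. The shorter lists hold fewer peaks by construction, and the other causes were not tested.

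The replicate block raised the H3K27ac regions called by limma from 0 to 2992, summit fragments to 3208, and, added after the data were seen, centring with the block to 2770, fragments with the block to 12064 and both to 11024. For CTCF the block made 0 calls (374 regions up and 226 down at an unadjusted p under 0.05), and with summit fragments also 0 (429 and 174). The replicate numbers as pairs changed no call of the peak numbers or bases. The SYNE3 start went from -0.055 to 0.031 in log2 fold enrichment when centred, with and without the block. With summit fragments the main SUN2 start was at -0.34, its upstream start at -0.073 and ALKBH6 at 0.13, with and without the block, and centred with the block SUN2 was at -0.10 and ALKBH6 at 0.37.

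Leaving out 1 library at a time turned many of the small differences, none of which had been called. The range was -7.5 to 3.67 for all CTCF peaks, -5.47 to 4.80 for CTCF kb, -6.17 to 2.5 for intragenic and -0.667 to 1 for flanking CTCF peaks. By gene, CTCF peaks ran from -2.33 to 1.17 at SYNE1, -2 to 1.33 at SYNE2 and -0.167 to 0.833 at SYNE3. CTCF kb ran from -0.881 to 1.99 at SYNE1, -1.92 to 0.907 at SYNE2, -1.07 to 0.676 at SYNE3, -0.073 to 0.569 at SYNE4, -0.989 to 0.743 at SUN1 and -0.924 to 0.068 at SUN2. SUN1 H3K27ac peaks ran from -0.5 to 4.5, regions found only with VPA from 2 to 5, and CTCF regions found only with CTRL from 0 to 1. Log2 fold enrichment ran from -1.15 to 0.013 at the first SUN1 start, -0.77 to 0.21 at GET4, -0.020 to 0.62 at the later SUN1 starts, -0.49 to 0.45 and -0.54 to 0.59 at the main and upstream SUN2 starts, -0.91 to 0.028 and -0.070 to 0.40 at the main and late SYNE2 starts, -0.58 to 0.34 at SYNE3, -0.36 to 0.67 at SDHAF1 and -0.48 to 0.17 at ALKBH6. The H3K27ac kb difference kept its sign at every member. It ran from 0.693 to 1.44 at SYNE1, 2.61 to 3.29 at SYNE2 and 0.087 to 0.776 at SYNE3. At SYNE4 it ran from 1.51 to 2.57, at SUN1 from 1.58 to 7.51 and at SUN2 from 1.08 to 1.96. H3K27ac peak differences kept theirs at SYNE1 (1.17 to 1.67), SYNE2 (2 to 3), SYNE4 (0.167 to 0.667) and SUN2 (0.5 to 1.5). Log2 fold enrichment did so at the internal SYNE1 start (0.14 to 1.36) and the upstream SYNE2 intron (0.23 to 0.81).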
